A study of Arabidopsis thaliana with 18 samples.

Results

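The glutathione transferases (GST) and the UDP-glycosyltransferases (UGT) of Arabidopsis thaliana were followed in cotyledons before and after an induction of vascular cells in culture. A gene was included where the array's annotation maps a probe set to that gene alone and its symbol begins with GST, or with UGT followed by a number. In 5 genes several probe sets qualified, and the brightest on average over the 18 arrays was taken. This gave 65 genes, 14 GST and 51 UGT, of 16542 genes with a probe set of their own. The TAIR10.1 gene table lists 47 protein-coding genes with a GST symbol of this form and 58 with a UGT symbol. Most genes with a UGT symbol were thus covered, and most with a GST symbol were not analysed here. Family members under other names were not counted.

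The enzymes of both families are classed as detoxification enzymes. GSTs join the tripeptide glutathione to reactive compounds, and in plants the tau (GSTU) and phi (GSTF) classes are large and known for their response to herbicides, xenobiotics and hormones, whereas the lambda class (GSTL) lacks the classical conjugating activity. UGTs move a sugar from a UDP-sugar onto small molecules such as hormones, flavonoids, monolignols and xenobiotics, and glycosylation of a hormone commonly inactivates it. The conjugates made by either family are carried into the vacuole or the wall for storage.

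The 6 groups held 3 arrays each. They were bes1-1, bes1-3 and WT (Col) cotyledons after 72 h of VISUAL culture, and cotyledons of the same 3 genotypes at 0 h, without culture. VISUAL turns leaf mesophyll into xylem and phloem cells, and BES1 acts as a transcription factor downstream of brassinosteroids. The labels call both mutants T-DNA insertion lines, and the BES1 probe set is not named by the platform annotation, so the insertion was not checked here. All plants were 6 days old and were grown in MS liquid medium at 22 °C under continuous light. At 72 h every genotype had received the same medium, with bikinin (10 µM), an inhibitor of GSK3-like kinases, kinetin (0.25 mg/L), a cytokinin, and 2,4-D (1.25 mg/L), a synthetic auxin. At 0 h no group had received it, so culture, hormones and cell identity change together and cannot be told apart in a comparison of the 2 times. The labels number the replicates 1 to 3 without saying whether plants or cultures were separate, and the p-values thus cover a spread between samples that could be purely technical.

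Values are log2 signals as deposited by the authors. The 6 arrays of replicate 1 stood apart from the other 12, with medians of 5.189 to 5.464 against 5.913 to 6.254, and with lower quartiles of 3.145 to 3.223 against 4.015 to 4.137. A group is called dim for a gene where the gene's mean lies under the lower quartile averaged over the group's arrays, and the size of a change into or out of a dim group is uncertain. Labels were checked against markers named on the platform. All 4 of the 8 listed mesophyll genes that could be measured (PORB, PRK, SBPASE and RCA) fell in every genotype, and their summed linear signal was 1484 to 4675 in bes1-1, 1609 to 2367 in bes1-3 and 2506 to 3161 in WT at 72 h, against 10765 to 14479, 10490 to 15406 and 10658 to 14253 at 0 h. The 3 measured of 8 xylem genes (IRX15, IRX15-L and IRX10) rose in every genotype, with summed signals at 72 h of 894 to 2992 in bes1-1, 2500 to 4817 in bes1-3 and 3926 to 7064 in WT, against 229 to 382, 250 to 472 and 241 to 414 at 0 h. Both measured procambium genes (CLE41 and CLE44) and both measured sieve element genes (CLE45 and OPS) also rose in each genotype, whereas SWEET11 of phloem parenchyma and the stomatal genes SPCH and MUTE fell. The third measured stomatal gene, FAMA, fell in bes1-1 (-1.11 ± 0.38, adjusted p = 0.0491) and was -0.91 ± 0.38 in bes1-3 (0.106) and -0.29 ± 0.38 in WT (0.763), with blocked adjusted p-values of 1.28e-06 and 0.0159, and no marker was at 0. These are bulk samples, in which fewer cells of a type and less RNA per cell cannot be told apart, and the part that changing cell types had in the results below was not tested.

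The first question was what 72 h of VISUAL did to the GST family in each genotype. In bes1-1, 2 of the 14 GST genes rose and 3 fell. In bes1-3 the counts were 3 and 3, and in WT 4 and 2. The scale moved this split: with each array centred on its median, 2 rose and 7 fell in bes1-1, 2 and 7 in bes1-3 and 4 and 4 in WT (called shares over all probe sets of 37.9%, 33% and 29.1%), and with quantile normalization 2 and 5, 3 and 7, and 4 and 3 (38.3%, 36% and 32.2%). Among all probe sets, 20.7% were called in bes1-1, 21.8% in bes1-3 and 19.5% in WT in either direction (limma, Benjamini-Hochberg adjusted p below 0.05 over 38408 probe sets). The GST shares of 35.7%, 42.9% and 42.9% lay above those backgrounds. The median log2 difference of the 14 genes was -0.26 in bes1-1, -0.44 in bes1-3 and -0.18 in WT, beside medians over all probe sets of 0.034, 0.033 and -0.034. The family thus held large changes in both directions around a median slightly below 0. In simulated data for the WT induction, 12% of added changes of 1 log2 unit and 60% of changes of 2 units were called. The simulated data held 200 changed probe sets, whereas 7494 were called in the WT induction. The adjustment was thus stricter in the simulated data, and these shares do not give the recovery in the induction itself. The same-numbered arrays of the 2 times deviated together, most clearly those of replicate 1. With the replicate number as a block the counts were 3 higher and 5 lower in bes1-1 (background 50.4% in either direction) and 4 higher and 7 lower in bes1-3 (45.6%), while WT had 4 and 4 (39.7%).

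GSTF4 and GSTU25 rose in all 3 genotypes, and both did so by more than any other gene of either family. GSTF4 belongs to the phi class. In bes1-1, GSTF4 had log2 signals of 8.94, 10.74 and 10.47 at 72 h, against 5.58, 6.67 and 6.56 at 0 h. In bes1-3, GSTF4 had 10.02, 11.48 and 11.56 at 72 h, against 5.62, 5.88 and 6.3 at 0 h. In WT, GSTF4 had 10.84, 11.43 and 11.97 at 72 h, against 5.5, 6.61 and 6.51 at 0 h. In each genotype all arrays at 72 h lay above all arrays at 0 h, and the 72 h mean was lowest in bes1-1. For GSTF4 the log2 difference was 3.78 ± 0.52 in bes1-1 (adjusted p = 7.17e-05), 5.09 ± 0.52 in bes1-3 (2.99e-06) and 5.21 ± 0.52 in WT (2.59e-06).

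GSTU25, a tau enzyme known to conjugate the explosive TNT, was dim at 0 h and above that range at 72 h. In bes1-1, GSTU25 had 7.0, 6.71 and 7.35 at 72 h, against 2.31, 2.72 and 2.46 at 0 h. In bes1-3, GSTU25 had 6.65, 7.37 and 7.35 at 72 h, against 2.84, 2.74 and 2.31 at 0 h. In WT, GSTU25 had 7.25, 7.19 and 7.43 at 72 h, against 2.24, 2.45 and 2.39 at 0 h. The values of the 3 genotypes overlapped at each time. For GSTU25 the log2 difference was 4.52 ± 0.24 in bes1-1 (adjusted p = 1.53e-08), 4.49 ± 0.24 in bes1-3 (1.11e-08) and 4.93 ± 0.24 in WT (4.93e-09), and all 3 means at 0 h were dim.

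The other rises were smaller and did not pass the test in every genotype. GSTF3 is a phi class gene with a close homologue, GSTF2, whose share in the probe signal was not tested. In WT, GSTF3 had 5.74, 7.09 and 7.67 at 72 h, against 3.94, 5.42 and 4.95 at 0 h. All WT arrays at 72 h lay above all WT arrays at 0 h. For GSTF3 the log2 difference was 0.98 ± 0.63 in bes1-1 (adjusted p = 0.325), 0.93 ± 0.63 in bes1-3 (0.377) and 2.06 ± 0.63 in WT (0.0302), and with the replicate block the adjusted p was 0.023 in bes1-1 and 0.0308 in bes1-3. The WT call was lost without WT replicate 1 at 0 h (0.131), WT replicate 2 at 72 h (0.0982), WT replicate 3 at 0 h (0.0603) or WT replicate 3 at 72 h (0.145), where the number in parentheses is the adjusted p.

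GSTU22, of the tau class, rose in bes1-3 and WT. In bes1-3, GSTU22 had 3.72, 3.97 and 4.09 at 72 h, against 2.85, 3.27 and 3.13 at 0 h. In WT, GSTU22 had 3.79, 4.85 and 4.54 at 72 h, against 3.02, 3.19 and 2.96 at 0 h. The 2 times did not overlap in either genotype, and the means at 0 h were dim. For GSTU22 the log2 difference was 0.41 ± 0.26 in bes1-1 (adjusted p = 0.314), 0.84 ± 0.26 in bes1-3 (0.0291) and 1.34 ± 0.26 in WT (0.00133). The bes1-3 call was lost without bes1-3 replicate 1 at 0 h (0.106), bes1-3 replicate 2 at 72 h (0.0839), bes1-3 replicate 3 at 0 h (0.0634) or bes1-3 replicate 3 at 72 h (0.11), with centred arrays (0.1), with a trend in the variance (0.0662) and when the compared groups were fitted alone (0.0701).

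GSTU20 and GSTU27 fell in all 3 genotypes. GSTU20, also known as FIP1, interacts with the jasmonate-conjugating enzyme FIN219/JAR1 in far-red light signalling. In bes1-1, GSTU20 had 9.29, 9.96 and 9.75 at 72 h, against 11.7, 11.63 and 11.63 at 0 h. In bes1-3, GSTU20 had 9.25, 9.87 and 9.39 at 72 h, against 11.65, 11.46 and 12.08 at 0 h. In WT, GSTU20 had 10.42, 10.31 and 10.92 at 72 h, against 11.74, 11.68 and 11.99 at 0 h. The 3 genotypes started at nearly the same level, and every array at 72 h was below every array at 0 h. For GSTU20 the log2 difference was -1.99 ± 0.25 in bes1-1 (adjusted p = 3.17e-05), -2.23 ± 0.25 in bes1-3 (7.29e-06) and -1.25 ± 0.25 in WT (0.00158).

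GSTU27 is another tau class gene. In bes1-1, GSTU27 had 4.23, 5.36 and 5.27 at 72 h, against 7.38, 7.6 and 7.96 at 0 h. In bes1-3, GSTU27 had 4.25, 4.88 and 5.12 at 72 h, against 7.03, 7.31 and 7.49 at 0 h. In WT, GSTU27 had 4.95, 6.05 and 5.9 at 72 h, against 7.48, 7.66 and 7.77 at 0 h. Again the 2 times did not overlap in any genotype. For GSTU27 the log2 difference was -2.7 ± 0.35 in bes1-1 (adjusted p = 3.68e-05), -2.53 ± 0.35 in bes1-3 (4.74e-05) and -2.0 ± 0.35 in WT (0.000442).

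GSTU26 fell in both mutants and was not called in WT. In bes1-1, GSTU26 had 4.21, 6.38 and 6.1 at 72 h, against 7.32, 8.78 and 9.0 at 0 h. In bes1-3, GSTU26 had 4.55, 5.85 and 5.92 at 72 h, against 7.12, 8.74 and 8.54 at 0 h. In WT, GSTU26 had 6.07, 7.48 and 7.6 at 72 h, against 7.32, 8.51 and 8.44 at 0 h. WT values at 72 h were lower than at 0 h within each replicate number, but the groups overlapped, with the replicate 1 array the lowest at each time. For GSTU26 the log2 difference was -2.8 ± 0.66 in bes1-1 (adjusted p = 0.00594), -2.7 ± 0.66 in bes1-3 (0.0069) and -1.04 ± 0.66 in WT (0.382), and the WT adjusted p with the replicate block was 0.000151. The difference in induction itself, mutant minus WT, was -1.77 ± 0.94 for bes1-1 (adjusted p = 0.805) and -1.66 ± 0.94 for bes1-3 (1.0), and was not called. It had the same sign in all 3 replicate numbers, at -1.86, -1.37 and -2.07 for bes1-1 and -1.32, -1.86 and -1.79 for bes1-3. In replicates 2 and 3 alone it passed in both mutants, at -1.72 (0.0126) and -1.83 (0.0487).

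The other 7 GST genes (GSTL3, GSTU15, GSTU16, GSTU18, GSTU21, GSTU23 and GSTU28) were called in no genotype. GSTU18 had the largest differences among them, -1.47 ± 0.58 in bes1-1, -1.36 ± 0.58 in bes1-3 and -0.3 ± 0.58 in WT, and with the replicate block its adjusted p was 0.00107 in bes1-1 and 0.00181 in bes1-3. The block also brought GSTL3 under the threshold in both mutants (-0.3 in bes1-1, blocked adjusted p = 0.0397, and -0.53 in bes1-3, 0.00137). GSTL3, the lambda class gene, kept group means between 11.55 and 12.08. GSTU16 (-0.65, 0.00545) and GSTU28 (-0.8, 0.0242) came under it in bes1-3, and GSTU23 (-0.59, 0.0369) in WT. GSTU15 and GSTU21 were dim in every group, with group means between 2.97 and 3.33 and between 2.62 and 3.15. A fall could hardly be seen at this signal, and no group mean of either gene rose out of the dim range.

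**Figure D1:**
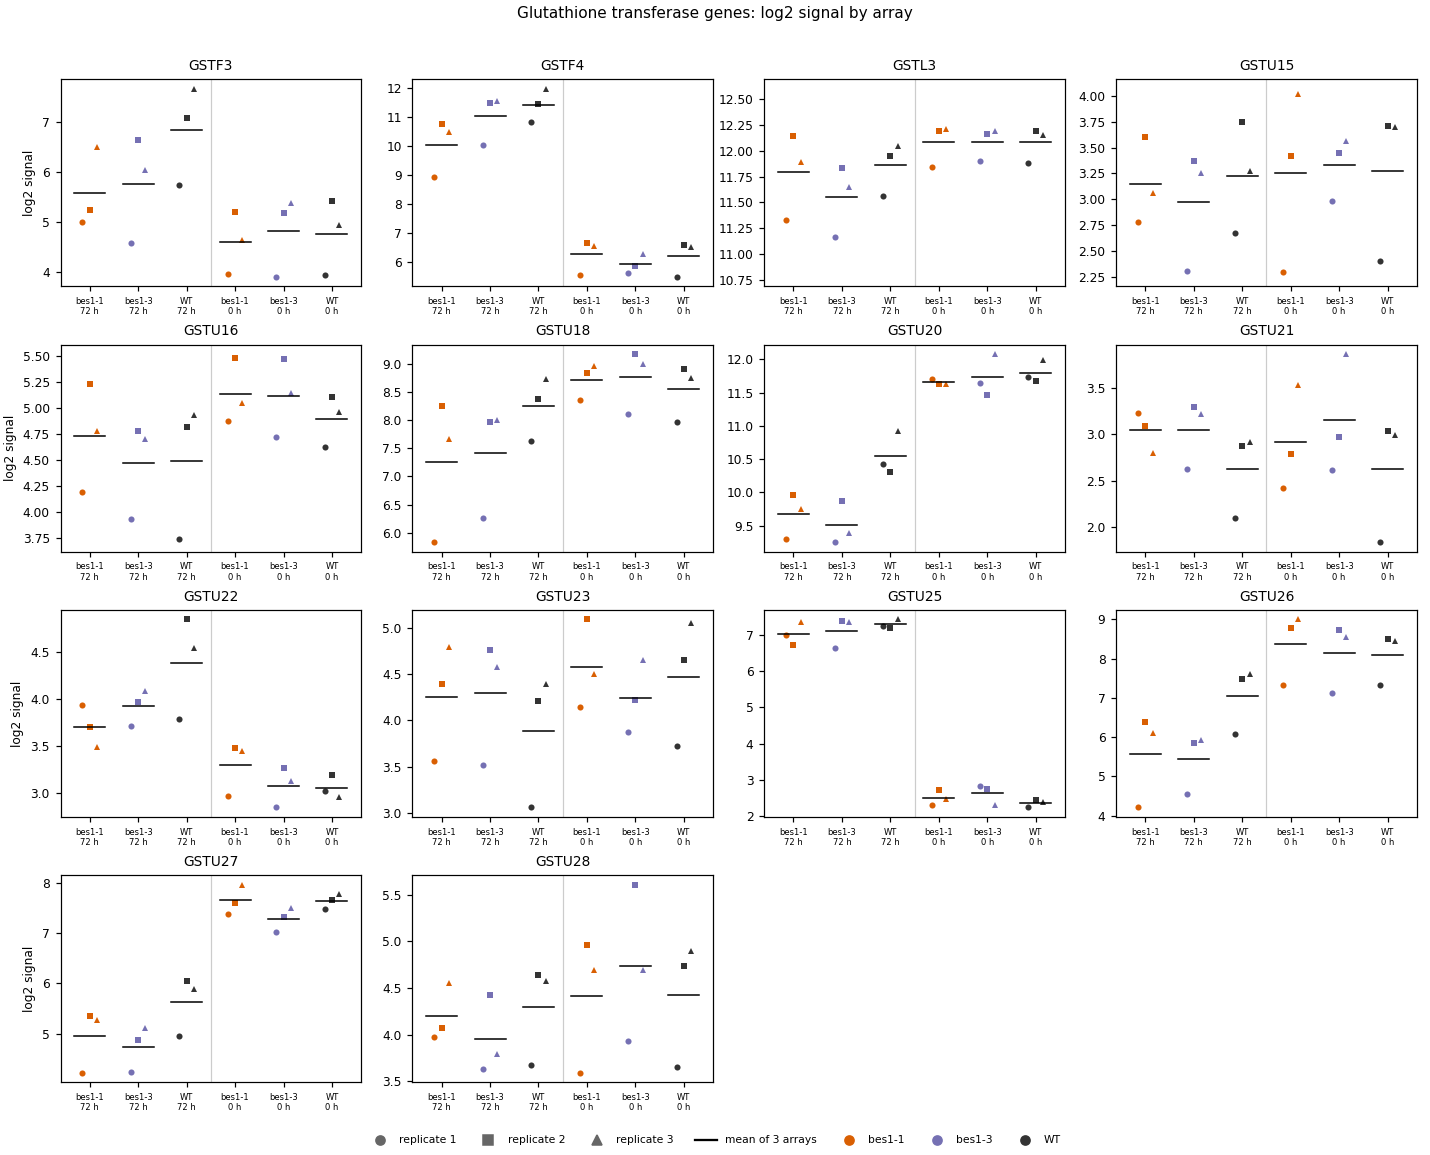
Log2 signal (y axis) of the 14 GST genes, 1 panel per gene, in bes1-1, bes1-3 and WT, with 72 h left of 0 h. Points are the 3 arrays of a group and horizontal bars are the group means; GSTF4 and GSTU25 are high at 72 h in all genotypes, and GSTU20 and GSTU27 are low.

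The same question was asked of the UGT family. In bes1-1, 3 of the 51 UGT genes rose and 8 fell. In bes1-3, 1 rose and 13 fell, and in WT 5 rose and 11 fell. Called shares were 21.6% in bes1-1, 27.5% in bes1-3 and 31.4% in WT, so the bes1-1 share was near its background of 20.7% and the others lay above theirs. Without dim probe sets, 11, 13 and 16 of 40 UGT genes were called in bes1-1, bes1-3 and WT (backgrounds 28.8%, 29.7% and 26.6%). With quantile normalization the counts were 19, 21 and 22 of 51 (38.3%, 36% and 32.2%). Among all probe sets the lower calls made up 9.76% in bes1-1, 11.4% in bes1-3 and 10.8% in WT and the higher calls 10.9%, 10.3% and 8.7%, whereas among the UGT genes lower calls outnumbered higher ones in each genotype. The median log2 difference over the 51 genes was -0.31 in bes1-1, -0.37 in bes1-3 and -0.3 in WT. With the replicate block the UGT counts were 6 higher and 17 lower in bes1-1 (background 28.5% higher and 21.9% lower), 5 and 21 in bes1-3 (24.2% and 21.3%), and 7 and 20 in WT (18.9% and 20.8%). Set against those backgrounds, the higher UGT calls were fewer and the lower ones more frequent. Over both directions the bes1-1 count of 23 of 51 lay under the background of 50.4%.

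UGT74D1, which glucosylates auxins, fell in all 3 genotypes. In bes1-1, UGT74D1 had 5.31, 6.13 and 6.26 at 72 h, against 7.58, 8.28 and 8.25 at 0 h. In bes1-3, UGT74D1 had 5.67, 6.33 and 5.68 at 72 h, against 7.89, 8.75 and 8.55 at 0 h. In WT, UGT74D1 had 5.98, 6.36 and 6.56 at 72 h, against 8.13, 8.63 and 8.74 at 0 h. The times did not overlap in any genotype. For UGT74D1 the log2 difference was -2.14 ± 0.33 in bes1-1 (adjusted p = 0.000181), -2.5 ± 0.33 in bes1-3 (2.97e-05) and -2.2 ± 0.33 in WT (0.000114). A second UGT74D1 probe set, with a lower mean, was not called in any genotype, at -0.72 ± 0.33 in bes1-1 (adjusted p = 0.141), -0.68 ± 0.33 in bes1-3 (0.179) and -0.19 ± 0.33 in WT (0.831), so the probe sets of this gene disagreed. The other auxin enzyme, UGT84B1, was dim in every group.

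UGT71C5, an abscisic acid glucosyltransferase, also fell in all 3 genotypes. In bes1-1, UGT71C5 had 4.42, 4.97 and 5.28 at 72 h, against 6.03, 6.93 and 6.92 at 0 h. In bes1-3, UGT71C5 had 3.77, 4.78 and 4.63 at 72 h, against 5.86, 6.68 and 6.78 at 0 h. In WT, UGT71C5 had 4.38, 5.38 and 5.35 at 72 h, against 6.0, 6.95 and 6.72 at 0 h. The 2 times stayed apart in each genotype. For UGT71C5 the log2 difference was -1.74 ± 0.4 in bes1-1 (adjusted p = 0.00502), -2.04 ± 0.4 in bes1-3 (0.00121) and -1.52 ± 0.4 in WT (0.012), and the WT call was lost without WT replicate 1 at 72 h (0.069) or WT replicate 2 at 0 h (0.0611).

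UGT71B6, likewise known for glucosylating abscisic acid, was called in bes1-1 only in this test. In bes1-1, UGT71B6 had 4.36, 4.76 and 5.53 at 72 h, against 5.87, 6.01 and 5.68 at 0 h, with no overlap. For UGT71B6 the log2 difference was -0.97 ± 0.29 in bes1-1 (adjusted p = 0.025), -0.83 ± 0.29 in bes1-3 (0.0513) and -0.58 ± 0.29 in WT (0.218), similar in size in the mutants. With the replicate block the bes1-3 value had an adjusted p of 0.00822. The bes1-1 call was lost without bes1-1 replicate 1 at 0 h (0.0596), bes1-1 replicate 1 at 72 h (0.113), bes1-1 replicate 2 at 0 h (0.0769) or bes1-1 replicate 2 at 72 h (0.0826), in replicates 2 and 3 alone (-0.7, 0.0508) and when the compared groups were fitted alone (0.12). A second UGT71B6 probe set gave -0.71 ± 0.26 in bes1-1 (0.0695), -1.12 ± 0.26 in bes1-3 (0.00441) and -0.59 ± 0.26 in WT (0.147).

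UGT73C6, which is known for glycosylating flavonols and brassinosteroids, fell in bes1-3 and WT. In bes1-3, UGT73C6 had 3.72, 4.27 and 4.57 at 72 h, against 7.09, 6.52 and 6.01 at 0 h. In WT, UGT73C6 had 4.82, 4.8 and 4.66 at 72 h, against 7.07, 5.43 and 5.93 at 0 h. The times did not overlap in either. For UGT73C6 the log2 difference was -1.2 ± 0.47 in bes1-1 (adjusted p = 0.0857), -2.35 ± 0.47 in bes1-3 (0.0013) and -1.39 ± 0.47 in WT (0.0479). The WT call was lost without WT replicate 1 at 0 h (0.222), WT replicate 1 at 72 h (0.0925), WT replicate 2 at 72 h (0.105), WT replicate 3 at 0 h (0.0764) or WT replicate 3 at 72 h (0.125), and in 5 other settings, with adjusted p-values from 0.0526 with a trend in the variance to 0.0824 with quantile normalization. A second UGT73C6 probe set was called in each genotype, at -2.26 ± 0.38 in bes1-1 (0.000459), -2.73 ± 0.38 in bes1-3 (5.94e-05) and -3.14 ± 0.38 in WT (1.69e-05).

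UGT74F1, a salicylic acid glucosyltransferase, rose in WT. In WT, UGT74F1 had 5.83, 7.35 and 7.03 at 72 h, against 4.63, 4.9 and 5.34 at 0 h. All 3 WT arrays at 72 h were above those at 0 h. For UGT74F1 the log2 difference was 0.46 ± 0.46 in bes1-1 (adjusted p = 0.544), 0.92 ± 0.46 in bes1-3 (0.193) and 1.78 ± 0.46 in WT (0.00957), with a blocked adjusted p of 0.00482 in bes1-3. The WT call was lost without WT replicate 2 at 72 h (0.0582). Mutant minus WT, the difference in induction was -1.33 ± 0.64 for bes1-1 (adjusted p = 0.748) and -0.87 ± 0.64 for bes1-3 (1.0).

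Of the other hormone enzymes, UGT76C1 and UGT76C2, the cytokinin N-glucosyltransferases, were not called. The UGT76C1 difference was -0.48 ± 0.42 in bes1-1, -0.84 ± 0.42 in bes1-3 and -0.81 ± 0.42 in WT, and the replicate block gave it adjusted p-values of 0.00572, 8.2e-05 and 0.000129. For UGT76C2 the differences were 0.15 ± 0.41, 0.41 ± 0.41 and -0.3 ± 0.41 in the same order of genotypes. UGT76B1, which glucosylates isoleucic and salicylic acid, had 0.68 ± 0.55 in bes1-1, -1.04 ± 0.55 in bes1-3 and -0.99 ± 0.55 in WT and was called in none.

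The genes UGT73B1, UGT73B2 and UGT73B3, which glucosylate flavonoids in vitro, were the only 3 of the 51 that lie next to each other in the genome and were all called in the same direction, in WT. UGT73B3 rose in every genotype. In bes1-1, UGT73B3 had 4.92, 4.97 and 5.52 at 72 h, against 3.14, 3.3 and 3.03 at 0 h. In bes1-3, UGT73B3 had 4.82, 5.66 and 5.41 at 72 h, against 3.06, 3.25 and 3.31 at 0 h. In WT, UGT73B3 had 5.54, 5.82 and 5.43 at 72 h, against 2.79, 3.28 and 3.56 at 0 h. All arrays at 72 h were above those at 0 h, and the means at 0 h were dim. For UGT73B3 the log2 difference was 1.98 ± 0.26 in bes1-1 (adjusted p = 4.77e-05), 2.09 ± 0.26 in bes1-3 (2.02e-05) and 2.39 ± 0.26 in WT (5.97e-06).

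The neighbours of UGT73B3 rose in WT by about 1 log2 unit. In WT, UGT73B2 had 7.99, 8.43 and 8.43 at 72 h, against 6.83, 6.95 and 7.38 at 0 h. In WT, UGT73B1 had 7.96, 8.49 and 8.67 at 72 h, against 7.04, 7.45 and 7.33 at 0 h. Neither gene overlapped between the times. For UGT73B2 the log2 difference was 0.86 ± 0.32 in bes1-1 (adjusted p = 0.0704), 0.79 ± 0.32 in bes1-3 (0.0973) and 1.23 ± 0.32 in WT (0.0103), and with the replicate block its adjusted p was 0.0189 in bes1-1 and 0.0305 in bes1-3. For UGT73B1 the log2 difference was 0.33 ± 0.31 in bes1-1 (adjusted p = 0.518), 0.19 ± 0.31 in bes1-3 (0.76) and 1.1 ± 0.31 in WT (0.0185). The WT call of UGT73B1 was lost without WT replicate 1 at 0 h (0.0696), WT replicate 2 at 72 h (0.0669) or WT replicate 3 at 72 h (0.0883).

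UGT78D1, a flavonol rhamnosyltransferase, fell in bes1-3 and WT into the dim range. In bes1-3, UGT78D1 had 1.71, 2.62 and 2.55 at 72 h, against 3.41, 4.58 and 4.53 at 0 h. In WT, UGT78D1 had 1.87, 2.88 and 2.9 at 72 h, against 3.41, 3.68 and 4.46 at 0 h. The times were apart in both. For UGT78D1 the log2 difference was -1.04 ± 0.41 in bes1-1 (adjusted p = 0.0884), -1.88 ± 0.41 in bes1-3 (0.00261) and -1.3 ± 0.41 in WT (0.0336), and the block gave bes1-1 an adjusted p of 0.000806. The WT call was lost without WT replicate 1 at 72 h (0.16), WT replicate 2 at 0 h (0.0601) or WT replicate 3 at 0 h (0.16), and when the compared groups were fitted alone (0.0702). UGT78D2 (flavonoid 3-O-glucosyltransferase), UGT78D3 (arabinosyltransferase) and UGT89B1 (flavonol 7-O-glucosyltransferase) were not called, with differences between -0.5 and 0.3 over the 3 genes and 3 genotypes.

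UGT84A3, one of the enzymes that make glucose esters of hydroxycinnamic acids, fell in bes1-3 and WT. In bes1-3, UGT84A3 had 3.85, 4.43 and 4.13 at 72 h, against 5.45, 5.89 and 6.1 at 0 h. In WT, UGT84A3 had 4.5, 4.3 and 4.59 at 72 h, against 5.57, 6.02 and 5.99 at 0 h. In both genotypes every 72 h array was below every 0 h array. For UGT84A3 the log2 difference was -0.31 ± 0.36 in bes1-1 (adjusted p = 0.609), -1.68 ± 0.36 in bes1-3 (0.00231) and -1.4 ± 0.36 in WT (0.00952). For bes1-1 minus WT the difference in induction was 1.09 ± 0.5 (adjusted p = 0.713), which did not pass the test, and in replicates 2 and 3 alone it was 1.58 (0.0363). UGT84A4, of the same group, was dim in all groups.

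UGT72E1, which glucosylates coniferyl and sinapyl aldehydes of the lignin pathway, fell in both mutants. In bes1-1, UGT72E1 had 6.99, 8.69 and 8.06 at 72 h, against 9.48, 9.57 and 9.92 at 0 h. In bes1-3, UGT72E1 had 7.01, 7.52 and 7.4 at 72 h, against 8.73, 8.6 and 9.76 at 0 h. The times did not overlap in either mutant. For UGT72E1 the log2 difference was -1.74 ± 0.38 in bes1-1 (adjusted p = 0.00353), -1.72 ± 0.38 in bes1-3 (0.00333) and -1.13 ± 0.38 in WT (0.0506), with an adjusted p of 0.00657 in WT with the block. The related monolignol enzymes UGT72E2 and UGT72E3 were dim in every group.

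UGT73B4, UGT73B5 and UGT73C1 are known for glucosylating TNT degradation products, a xenobiotic substrate. UGT73B4 rose in bes1-1. In bes1-1, UGT73B4 had 4.77, 4.53 and 5.69 at 72 h, against 3.19, 3.49 and 3.49 at 0 h. Both times stood apart, and the mean at 0 h was dim. For UGT73B4 the log2 difference was 1.61 ± 0.45 in bes1-1 (adjusted p = 0.0179), 0.77 ± 0.45 in bes1-3 (0.285) and 0.35 ± 0.45 in WT (0.753), and the bes1-1 call was lost without bes1-1 replicate 1 at 0 h (0.0581) or bes1-1 replicate 3 at 72 h (0.0983). UGT73C1 fell in bes1-3. In bes1-3, UGT73C1 had 4.62, 4.65 and 4.98 at 72 h, against 6.26, 6.2 and 5.17 at 0 h, also without overlap. For UGT73C1 the log2 difference was -0.34 ± 0.3 in bes1-1 (adjusted p = 0.477), -1.13 ± 0.3 in bes1-3 (0.0105) and -0.64 ± 0.3 in WT (0.176). The bes1-3 call was lost without bes1-3 replicate 1 at 0 h (0.0535) or bes1-3 replicate 2 at 0 h (0.0573), in replicates 2 and 3 alone (-0.87, 0.0802), with quantile normalization (0.0891), with centred arrays (0.0571) and when the compared groups were fitted alone (0.0725). UGT73B5 differed by 0.34 in bes1-1, -0.18 in bes1-3 and -0.15 in WT and was not called.

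UGT87A2, known for a role in flowering time, rose in bes1-1 and WT. In bes1-1, UGT87A2 had 10.97, 11.2 and 11.48 at 72 h, against 10.01, 10.62 and 9.12 at 0 h. In WT, UGT87A2 had 11.14, 11.69 and 11.58 at 72 h, against 10.06, 10.61 and 10.51 at 0 h. The times did not overlap. For UGT87A2 the log2 difference was 1.3 ± 0.33 in bes1-1 (adjusted p = 0.00891), 0.55 ± 0.33 in bes1-3 (0.291) and 1.08 ± 0.33 in WT (0.027). The bes1-1 call was lost without bes1-1 replicate 3 at 0 h (0.0508) and when the compared groups were fitted alone (0.0776), and the WT call without WT replicate 1 at 0 h (0.105), WT replicate 2 at 72 h (0.105), WT replicate 3 at 0 h (0.053) or WT replicate 3 at 72 h (0.0873) and in replicates 2 and 3 alone (1.08, 0.0698).

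Among the called genes without a role given here, UGT85A2 had the largest fall of all 65 genes. In bes1-1, UGT85A2 had 6.17, 6.2 and 6.58 at 72 h, against 9.08, 9.39 and 10.07 at 0 h. In bes1-3, UGT85A2 had 6.01, 6.73 and 6.11 at 72 h, against 8.56, 9.08 and 9.91 at 0 h. In WT, UGT85A2 had 5.95, 6.89 and 6.59 at 72 h, against 9.35, 10.06 and 9.8 at 0 h. Each genotype lost about 3 log2 units, with no overlap between the times. For UGT85A2 the log2 difference was -3.2 ± 0.37 in bes1-1 (adjusted p = 1.29e-05), -2.9 ± 0.37 in bes1-3 (2.24e-05) and -3.26 ± 0.37 in WT (7.8e-06).

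UGT85A4, of the same subfamily, fell on the probe set that stood for it. In bes1-1, UGT85A4 had 4.55, 5.08 and 5.1 at 72 h, against 6.84, 6.64 and 7.07 at 0 h. In bes1-3, UGT85A4 had 4.48, 4.62 and 4.84 at 72 h, against 6.76, 6.94 and 7.35 at 0 h. In WT, UGT85A4 had 4.02, 5.12 and 4.74 at 72 h, against 6.51, 7.1 and 7.26 at 0 h. The times were apart in each genotype. For UGT85A4 the log2 difference was -1.94 ± 0.3 in bes1-1 (adjusted p = 0.000172), -2.37 ± 0.3 in bes1-3 (1.92e-05) and -2.33 ± 0.3 in WT (2.44e-05). A second probe set of the gene gave 0.05 ± 0.26 in bes1-1 (0.918), 0.28 ± 0.26 in bes1-3 (0.548) and 0.14 ± 0.26 in WT (0.844), so the direction of UGT85A4 rests on the choice of probe set.

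UGT72B3 fell by nearly the same amount in the 3 genotypes. In bes1-1, UGT72B3 had 4.08, 4.58 and 3.78 at 72 h, against 5.59, 6.07 and 5.94 at 0 h. In bes1-3, UGT72B3 had 3.25, 4.57 and 3.85 at 72 h, against 5.55, 6.1 and 6.31 at 0 h. In WT, UGT72B3 had 3.04, 4.45 and 4.3 at 72 h, against 5.39, 6.52 and 5.77 at 0 h. No array at 72 h reached the level of any at 0 h in the same genotype. For UGT72B3 the log2 difference was -1.72 ± 0.42 in bes1-1 (adjusted p = 0.0072), -2.1 ± 0.42 in bes1-3 (0.0014) and -1.96 ± 0.42 in WT (0.00256).

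UGT76E11 fell in all 3 genotypes, with the smallest difference in bes1-1. In bes1-1, UGT76E11 had 6.76, 7.13 and 7.06 at 72 h, against 7.55, 7.9 and 7.5 at 0 h. In bes1-3, UGT76E11 had 5.99, 6.29 and 5.97 at 72 h, against 8.23, 8.12 and 8.3 at 0 h. In WT, UGT76E11 had 6.84, 6.52 and 6.53 at 72 h, against 7.8, 8.1 and 8.1 at 0 h. The times did not overlap in any genotype. For UGT76E11 the log2 difference was -0.66 ± 0.2 in bes1-1 (adjusted p = 0.0251), -2.13 ± 0.2 in bes1-3 (1.12e-06) and -1.37 ± 0.2 in WT (8.67e-05). The bes1-1 call was lost without bes1-1 replicate 1 at 72 h (0.0954), bes1-1 replicate 2 at 0 h (0.1) or bes1-1 replicate 3 at 72 h (0.0512) and when the compared groups were fitted alone (0.171). The difference in induction of bes1-1 was 0.7 ± 0.28 (adjusted p = 0.611) and that of bes1-3 was -0.77 ± 0.28 (1.0).

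UGT71B1 and UGT71C2 fell in bes1-3 and WT. In bes1-3, UGT71B1 had 6.04, 6.07 and 5.63 at 72 h, against 7.58, 7.51 and 7.71 at 0 h. In WT, UGT71B1 had 6.43, 6.43 and 6.39 at 72 h, against 7.56, 7.29 and 7.42 at 0 h. For UGT71B1 the log2 difference was -0.56 ± 0.24 in bes1-1 (adjusted p = 0.116), -1.69 ± 0.24 in bes1-3 (5.85e-05) and -1.01 ± 0.24 in WT (0.00538), with a blocked adjusted p of 0.0405 in bes1-1. The times did not overlap in bes1-3 or WT for either gene. In bes1-3, UGT71C2 had 2.18, 2.62 and 2.72 at 72 h, against 3.07, 3.41 and 4.03 at 0 h. In WT, UGT71C2 had 2.43, 2.35 and 2.68 at 72 h, against 3.75, 3.45 and 3.18 at 0 h. For UGT71C2 the log2 difference was -0.56 ± 0.25 in bes1-1 (adjusted p = 0.141), -1.0 ± 0.25 in bes1-3 (0.00788) and -0.98 ± 0.25 in WT (0.0101), with 0.0466 in bes1-1 under the block. UGT71C2 was dim at both times, and its bes1-3 call was lost without bes1-3 replicate 3 at 0 h (0.0514). Quantile normalization ended both its calls (adjusted p = 0.0578 in bes1-3 and 0.0843 in WT), as did fitting the compared groups alone (0.0858 and 0.0525).

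The 31 UGT genes called in no genotype were UGT71B5, UGT71B8, UGT71C1, UGT71C3, UGT71C4, UGT71D1, UGT72E2, UGT72E3, UGT73B5, UGT73C2, UGT73C7, UGT73D1, UGT74B1, UGT76B1, UGT76C1, UGT76C2, UGT76D1, UGT76E1, UGT76E2, UGT76E12, UGT78D2, UGT78D3, UGT80B1, UGT84A4, UGT84B1, UGT84B2, UGT85A3, UGT85A5, UGT85A7, UGT88A1 and UGT89B1. The largest difference among them was that of UGT73D1, at 0.95 ± 0.62 in bes1-1, 1.39 ± 0.62 in bes1-3 and 1.28 ± 0.62 in WT. With the block its adjusted p was 0.0293, 0.00386 and 0.00704 in the same order. In all, 3 more genes besides UGT73D1 and UGT76C1 came under the threshold with the block in all 3 genotypes. UGT74B1, an enzyme of glucosinolate synthesis, had differences of -0.78 in bes1-1, -1.18 in bes1-3 and -0.76 in WT. UGT80B1, a sterol glucosyltransferase, had 0.98, 0.64 and 0.69. UGT88A1 had -0.82, -0.84 and -0.89. The block further brought in UGT71C4 in both mutants (-0.38, 0.00691 in bes1-1 and -0.53, 0.000672 in bes1-3) and likewise UGT71D1 (-0.4, 0.0265 and -0.46, 0.0152). In bes1-3 and WT it brought in UGT84A4 (-0.36, 0.0376 and -0.46, 0.0123) and UGT85A7 (-0.76, 0.0225 and -0.91, 0.00913), in bes1-1 and WT UGT85A5 (-0.79, 0.00236 and -0.87, 0.0013), and in WT UGT84B1 (-0.55, 0.0301) and UGT85A3 (-0.58, 0.0466). UGT76E12 had probe sets that disagreed in bes1-3, at 0.22 ± 0.22 and, on the second, -1.71 ± 0.41 (adjusted p = 0.00544).

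**Figure D2:**
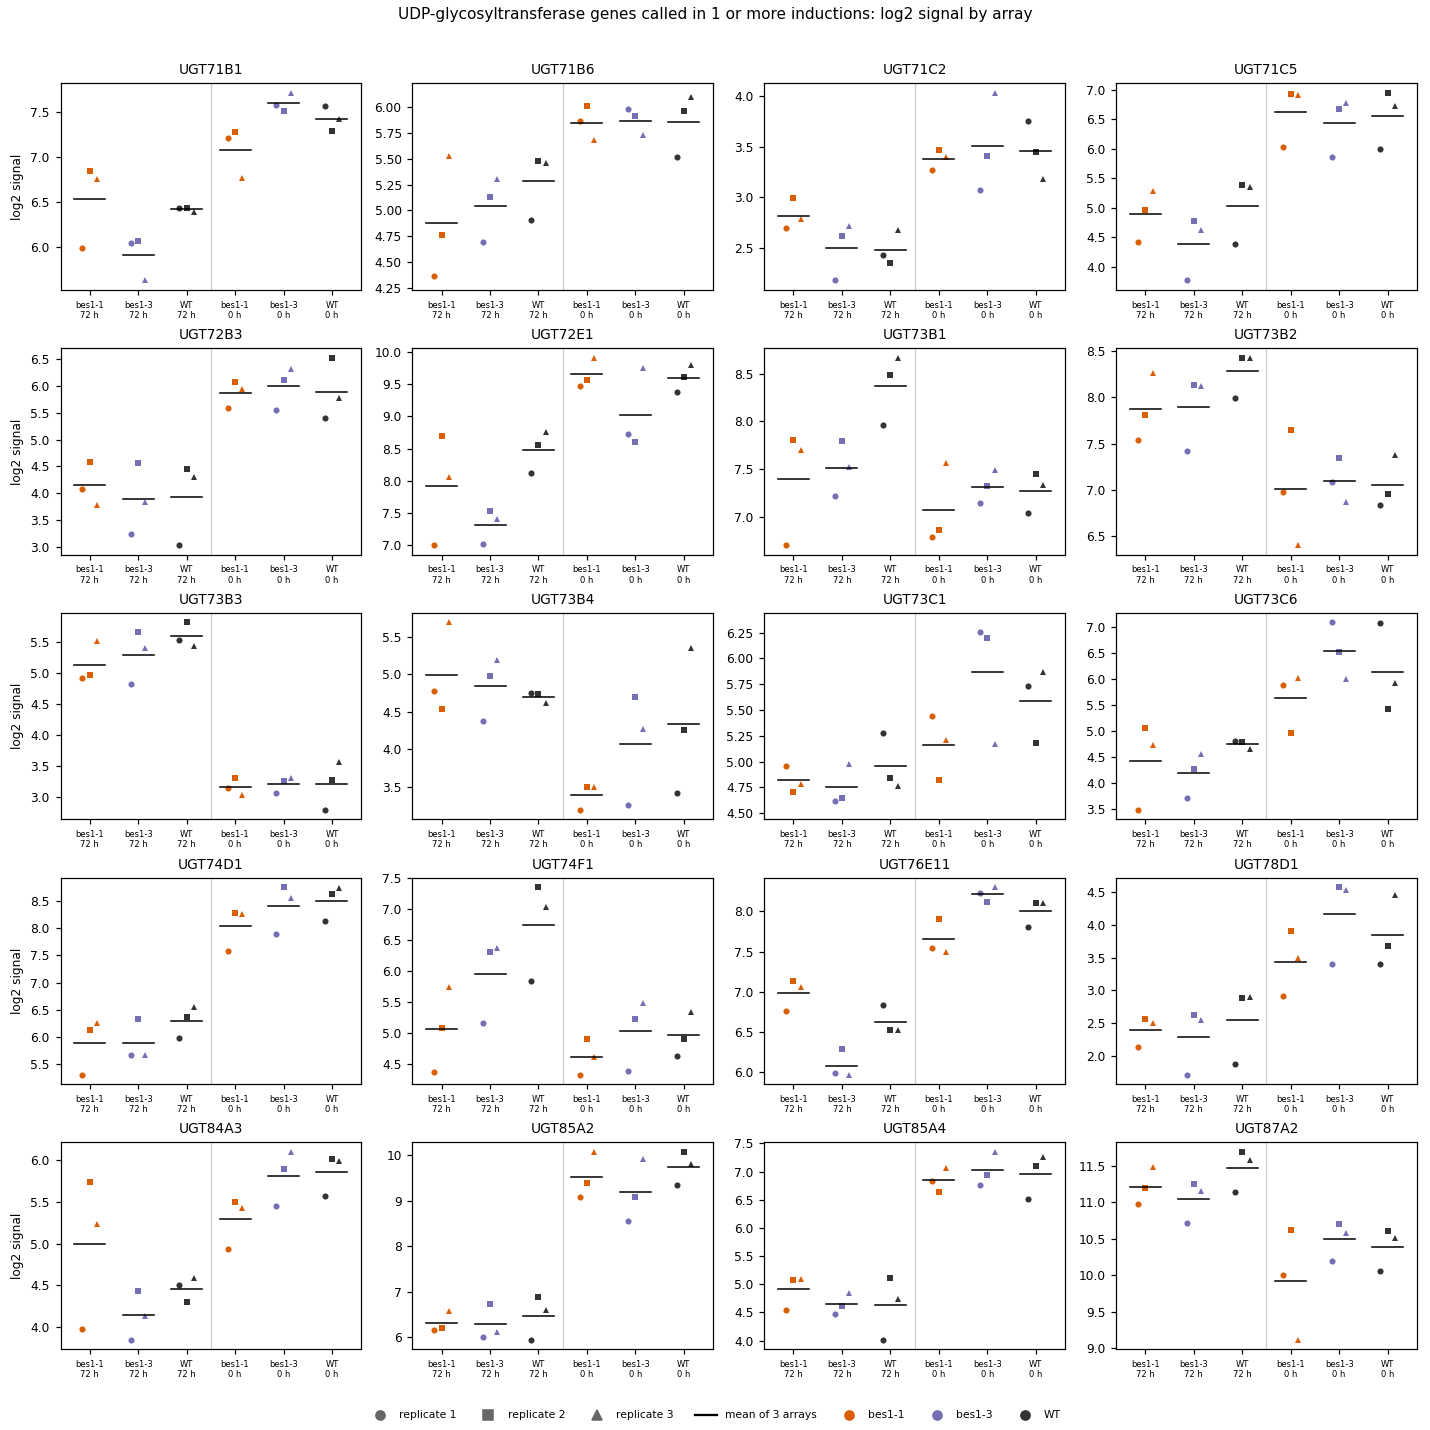
Log2 signal (y axis) of the UGT genes called in 1 or more genotypes, 1 panel per gene, in bes1-1, bes1-3 and WT, with 72 h left of 0 h. Points are the 3 arrays of a group and horizontal bars are the group means; UGT73B3 is high at 72 h in every genotype, and UGT85A2, UGT74D1 and UGT72B3 are low.

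**Figure D3:**
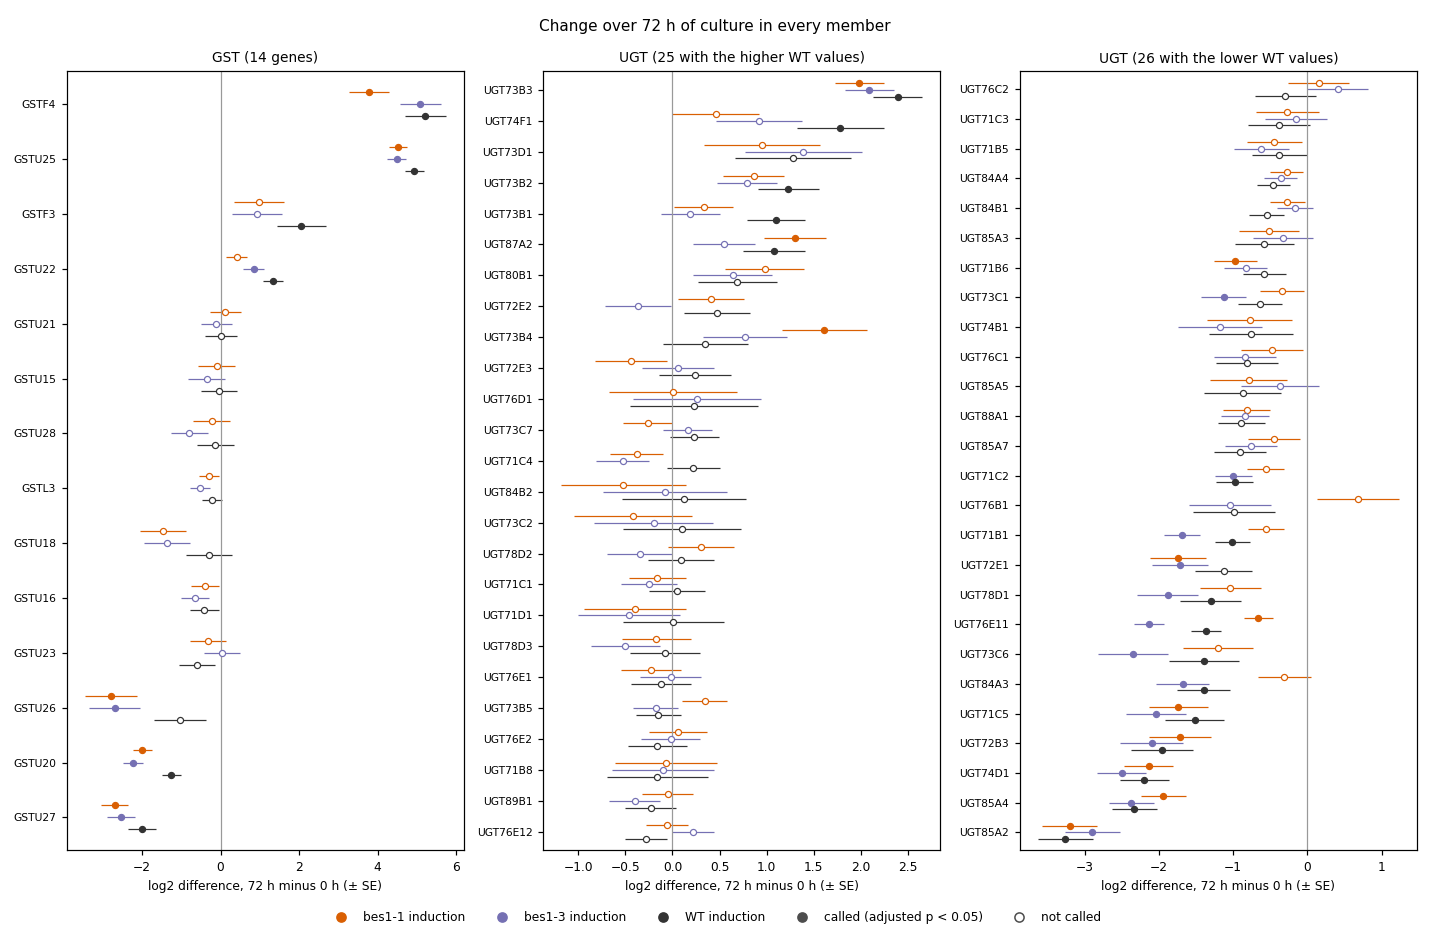
Log2 difference, 72 h minus 0 h (x axis), of each GST and UGT gene (y axis) in bes1-1, bes1-3 and WT, with bars for ± SE from limma and filled points where the adjusted p was below 0.05. GSTF4 and GSTU25 lie above 3 in each genotype, and UGT85A2 lies below -2 in each.

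The inductions of the genotypes were then set side by side. GSTF4 and GSTU25 rose and GSTU20 and GSTU27 fell in all 3, and among UGT genes UGT73B3 rose and UGT71C5, UGT72B3, UGT74D1, UGT76E11, UGT85A2 and UGT85A4 fell in all 3. For UGT74D1 and UGT85A4 this holds for the chosen probe set only, as the second was called in no genotype. Thus 4 of the 7 GST genes and 7 of the 20 UGT genes called in any genotype were called in every one, all in the same direction. The share of all probe sets called in all 3 genotypes was not counted. Whether such sharing is particular to these families thus cannot be told from these counts. The mutants' difference in induction from WT, tested directly, was called for 0 of 14 GST and 0 of 51 UGT genes in bes1-1 (background 0.0521%) and for 0 of each in bes1-3 (background 0%). At an unadjusted p under 0.05, limma gave 1 GST and 2 UGT genes in bes1-1, where 6.86% of all probe sets met it, and 1 of each family in bes1-3 (2.54%). In replicates 2 and 3 alone it called GSTU22 (-1.48, adjusted p = 0.0226), GSTU26 and UGT84A3 in bes1-1 (background 1.57%) and GSTU26 in bes1-3 (0.0625%).

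Genes of both families often sit in tandem. In the TAIR10.1 gene order 32 of the 65 genes, 6 GST and 26 UGT, formed 19 pairs with no other protein-coding gene between them. In 9 of the 19 pairs the partners had WT differences of opposite sign, and in 2 pairs, both among UGT73B3, UGT73B2 and UGT73B1, they were called in the same direction. In 0 pairs were both partners called in opposite directions. The signs include small differences that were not called, and they were not set against pairs of genes that are not neighbours. GSTU25 and GSTU26 are such neighbours. GSTU25 rose by 4.52 ± 0.24 in bes1-1, 4.49 ± 0.24 in bes1-3 and 4.93 ± 0.24 in WT, and GSTU26 next to it differed by -2.8, -2.7 and -1.04. The row GSTU23, GSTU22, GSTU21 and GSTU20 had WT differences of -0.59, 1.34, 0.01 and -1.25, of which those of GSTU22 and GSTU20 were called, in opposite directions. In the row UGT85A7, UGT85A2, UGT85A5 and UGT85A3, UGT85A2 was called in each genotype and the other 3 in none, with WT differences of -0.91, -0.87 and -0.58. Tandem copies resemble each other in sequence, and how far a probe set also picks up its neighbour's transcript was not tested.

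The second question was whether the families stood at another level in the bes1 mutants after culture. At 72 h no GST gene was called in bes1-1 against WT (background 0.844%) or in bes1-3 against WT (background 0.13%), and no UGT gene was called in either. In simulated data for bes1-1 against WT at 72 h, 10% of added changes of 1 log2 unit and 51% of changes of 2 units were called. The simulated arrays varied independently, whereas same-numbered arrays in the data deviated together. These shares thus do not give the recovery in the data. At an unadjusted p under 0.05, limma gave 4 GST and 3 UGT genes in bes1-1, where 8.56% of all probe sets met it, and 3 GST and 5 UGT genes in bes1-3 (5.1%). Most GST values lay below WT, with a median log2 difference of -0.48 in bes1-1 (11 of 14 negative) and -0.37 in bes1-3 (12 of 14 negative), beside medians over all probe sets of 0.094 and 0.067. For the UGT family the medians were -0.11 and -0.17. Both mutants were compared with the same 3 WT arrays, so the 2 sets of differences are not independent.

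Same-numbered arrays of mutant and WT deviated together at 72 h, most clearly those of replicate 1, and the replicate block changed these counts. With it, 7 GST genes were lower and 0 higher in bes1-1, where 6.3% of all probe sets were lower and 7.14% higher (13.4% in all), and 3 were lower and 0 higher in bes1-3, against 3.46% lower and 3.85% higher among all (7.31%). Of the 51 UGT genes, 4 were lower and 1 higher in bes1-1 and 5 lower and 0 higher in bes1-3. In either direction the UGT share lay under the background of 13.4% in bes1-1 and close to that of 7.31% in bes1-3. In replicates 2 and 3 alone, without the arrays that stood apart, the counts were 3 GST and 2 UGT genes in bes1-1 (background 5.25%) and 2 GST and 0 UGT genes in bes1-3 (0.929%). GSTU20, GSTU26, GSTU27, UGT71C4 and UGT73B1 were lower in both mutants with the block. The share of all probe sets lower in both mutants was not counted. Cell type markers moved with this comparison. Without the block 2 of the 15 measured were called, both lower in bes1-1 and both of xylem, IRX15 (-2.88 ± 0.53, adjusted p = 0.0177) and IRX15-L (-2.19 ± 0.43, 0.0285). With the block 7 were called in bes1-1. The third measured xylem gene, IRX10 (-1.49, blocked adjusted p = 0.000286), the sieve element gene CLE45 (-1.08, 0.00861) and the stomatal genes SPCH (-1.33, 0.0056) and FAMA (-0.64, 0.000429) were lower besides the first 2, and SWEET11 (1.21, 0.0154) was higher. In bes1-3 the block called 4, all lower, IRX15 (-1.58, 0.0142), SPCH (-1.57, 0.0051), FAMA (-0.79, 0.000413) and the mesophyll gene RCA (-0.69, 0.0455), while IRX15-L was -0.79 (0.131) and IRX10 -0.38 (0.246). The sieve element genes did not move alike. OPS, the other sieve element gene, was 1.06 in bes1-1 (blocked adjusted p = 0.0652) and 1.0 in bes1-3 (0.106). The stomatal gene MUTE was 0.01 in both mutants. Its means at 72 h were dim, at 2.26 in bes1-1, 2.26 in bes1-3 and 2.25 in WT, so a fall could hardly be seen. SPCH was also dim in both mutants, at 3.36 in bes1-1 and 3.11 in bes1-3, and the size of its differences is uncertain. The summed linear signal of the 3 stomatal genes at 72 h was 90 to 174 in bes1-1, 86 to 153 in bes1-3 and 138 to 294 in WT. The part of cell composition in the GST and UGT values was not tested.

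GSTU26 was the furthest from WT of the genes lower in both mutants. At 72 h it had 4.21, 6.38 and 6.1 in bes1-1, against 6.07, 7.48 and 7.6 in WT. In bes1-3 it had 4.55, 5.85 and 5.92. Each mutant array lay below the WT array of the same replicate number, and the bes1-3 group did not overlap WT, whereas the bes1-1 group did. The log2 difference was -1.49 ± 0.66 in bes1-1 (adjusted p = 0.535, and 0.00012 with the block) and -1.61 ± 0.66 in bes1-3 (0.826, and 0.00026).

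GSTU20, the FIN219 partner, did not overlap WT in either mutant. Its log2 signals at 72 h are given with its induction above. The log2 difference of GSTU20 was -0.88 ± 0.25 in bes1-1 (adjusted p = 0.153, and 0.0139 with the block) and -1.05 ± 0.25 in bes1-3 (0.194, and 0.0113). GSTU27 overlapped WT in both mutants, at -0.68 ± 0.35 in bes1-1 (0.655, and 0.0288) and -0.89 ± 0.35 in bes1-3 (0.783, and 0.0146).

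The other GST genes lower with the block were so in bes1-1. Where only a blocked adjusted p is given from here on, the SE is that of the blocked fit and the gene did not pass without it. GSTF4 differed by -1.36 ± 0.52 in bes1-1 (adjusted p = 0.385, and 0.00212 with the block) with no overlap, and by -0.39 ± 0.52 in bes1-3 (1.0, and 0.348). GSTF3 differed by -1.25 ± 0.32 in bes1-1 (block 0.0234) and -1.08 ± 0.32 in bes1-3 (block 0.0641), GSTU18 by -1.0 ± 0.29 (block 0.0388) and -0.84 ± 0.29 (block 0.103), all with overlap in bes1-1. GSTU22 was at 0.15, -1.13 and -1.06 against WT in bes1-1 replicates 1, 2 and 3, so the first replicate had the opposite sign (block 0.0411). None of these genes is shown to differ between bes1-1 and bes1-3, where limma with or without the block called no GST gene at 72 h.

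UGT74F1, the salicylic acid enzyme, had the largest UGT difference from WT at 72 h. At 72 h it had 4.36, 5.08 and 5.73 in bes1-1, against 5.83, 7.35 and 7.03 in WT, with no overlap. In bes1-3 it had 5.16, 6.3 and 6.36. The log2 difference was -1.68 ± 0.46 in bes1-1 (adjusted p = 0.125, and 0.000499 with the block) and -0.8 ± 0.46 in bes1-3 (1.0, and 0.0516). UGT73B1, of flavonoids, lay below WT without overlap in both mutants, at -0.97 ± 0.31 in bes1-1 (0.234, and 0.00498) and -0.86 ± 0.31 in bes1-3 (0.666, and 0.0181).

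UGT71C4 was -0.59 ± 0.1 in bes1-1 (block 0.00208) and -0.63 ± 0.1 in bes1-3 (block 0.00407). UGT71D1 was -0.66 ± 0.14 in bes1-1 (block 0.00773), and the cytokinin enzyme UGT76C1 was 0.48 ± 0.12 there (block 0.0206), the single gene that was higher. In bes1-3 the block called the lignin pathway enzyme UGT72E1 at -1.17 ± 0.29 (0.0305), the abscisic acid enzyme UGT71C5 at -0.64 ± 0.11 (0.00512) and UGT76E11 at -0.55 ± 0.15 (0.043). Both UGT71C5 and UGT76E11 also separated the mutants. With the block UGT71C5 was 0.5 ± 0.11 (0.0477) and UGT76E11 0.9 ± 0.15 (0.0189) in bes1-1 minus bes1-3 at 72 h (background 1.16%), while without it 0 of 65 genes were called (background 0.0104%) and 0 GST and 3 UGT genes had an unadjusted p under 0.05 (2.14% of all probe sets).

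**Figure D4:**
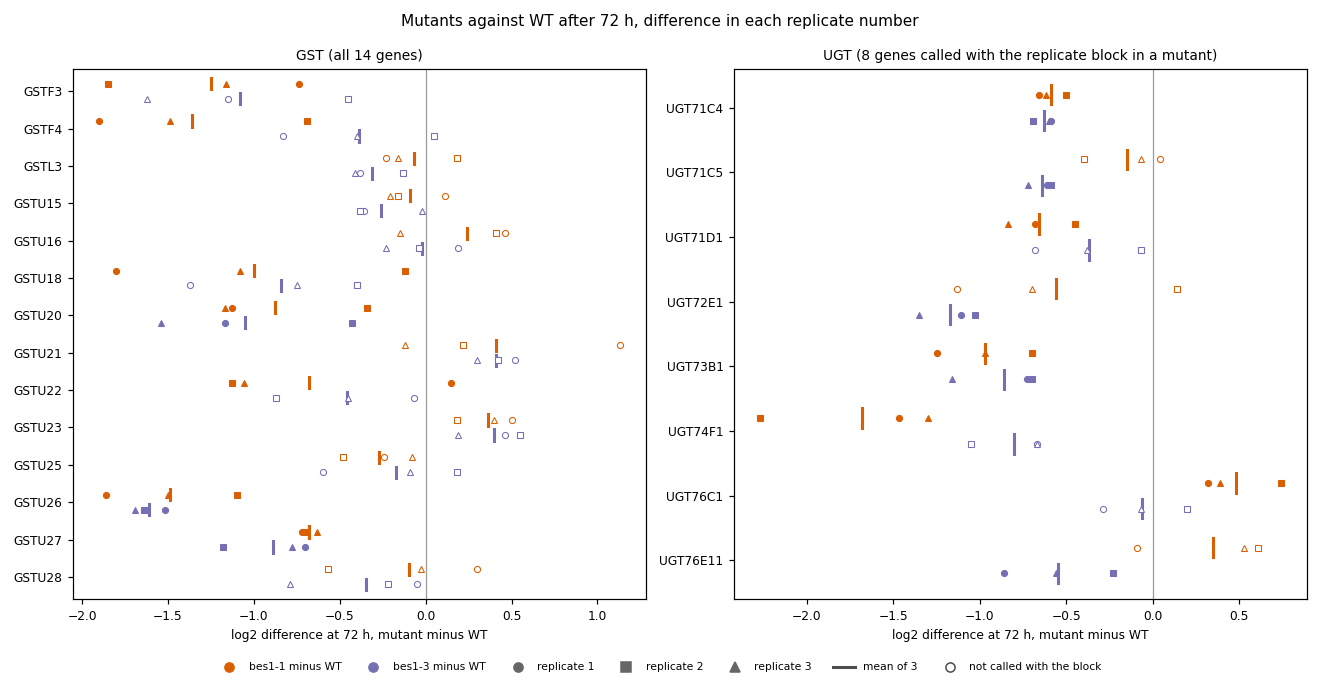
Log2 difference at 72 h, mutant minus WT (x axis), of the 14 GST genes and of the 8 UGT genes that the fit with the replicate block called in a mutant (y axis). Points are differences between same-numbered arrays, filled where that fit called the gene, and vertical ticks are means of 3; all called genes but UGT76C1 in bes1-1 have a mean below 0.

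Before culture no gene of either family passed the test between genotypes. At 0 h, limma called 0 of the 65 genes in bes1-1 against WT (background 0.0208%), 0 in bes1-3 against WT (0.00781%) and 0 in bes1-1 against bes1-3 (0.0703%). The unadjusted p was under 0.05 for 1 UGT gene in the first of these comparisons (2.33% of all probe sets), for none in the second (0.948%) and for 5 UGT genes in the third (3.16%). The gene of the first was UGT76B1, with 6.22, 5.43 and 4.13 in bes1-1, against 6.85, 5.78 and 7.11 in WT. Replicate 3 of bes1-1 was far below the other 2. The log2 difference of UGT76B1 was -1.32 ± 0.55 (adjusted p = 1.0), made up of -0.63, -0.35 and -2.98 for replicates 1, 2 and 3.

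Few genes of the pathways around these enzymes are named by the platform. Of the listed genes, 2 of 26 for glutathione metabolism, 0 of 15 ABCC vacuolar transporters, 1 of 10 for xenobiotic response, 0 of 12 for nucleotide sugar supply and 1 of 9 for flavonoid synthesis could be measured. GR2, the plastid and mitochondrial glutathione reductase, fell in every genotype, at -1.34 ± 0.22 in bes1-1 (adjusted p = 0.000304), -1.2 ± 0.22 in bes1-3 (0.000621) and -1.31 ± 0.22 in WT (0.000298). GR1, the cytosolic glutathione reductase, was not called, at 0.2 ± 0.21 in bes1-1 (adjusted p = 0.57), 0.03 ± 0.21 in bes1-3 (0.957) and 0.08 ± 0.21 in WT (0.902). AER, an alkenal reductase of the xenobiotic list, rose in every genotype, at 1.07 ± 0.34 in bes1-1 (adjusted p = 0.0348), 1.12 ± 0.34 in bes1-3 (0.0254) and 1.23 ± 0.34 in WT (0.0158). DFR, dihydroflavonol reductase of anthocyanin synthesis, differed by 0.85 ± 0.57 in bes1-1 (adjusted p = 0.344), -3.65 ± 0.57 in bes1-3 (0.000157) and -3.43 ± 0.57 in WT (0.0003), and at 0 h its log2 signals were 4.56, 6.3 and 4.86 in bes1-1, 8.85, 8.93 and 8.01 in bes1-3 and 9.04, 7.24 and 7.75 in WT. The difference in induction of DFR, bes1-1 minus WT, was 4.28 ± 0.8 (adjusted p = 0.0797), and at 0 h DFR was lower in bes1-1 than in bes1-3, at -3.36 ± 0.57 (0.0433).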

How the data were processed

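Total RNA of 18 cotyledon samples was hybridised 1 per Affymetrix array. The authors deposited 1 value for each of 38408 probe sets and array, used here as log2 signal, with the log base inferred from the values. Per the submitters' processing notes the software was Affymetrix Expression Console, and the sources used here give no version, background correction, normalization or summarisation. The array medians differed between replicate 1 and the others, which adds to the spread within every group, and the number of arrays limits the precision.

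All values were fitted with limma 3.58.1 (lmFit and eBayes) in R 4.3.3, with 6 group means over 18 arrays and 12 residual degrees of freedom. Within each of 11 contrasts the Benjamini-Hochberg adjustment ran across the 38408 probe sets, and a gene was called at an adjusted p below 0.05. Errors are standard errors of the fit, from 3 arrays per group. Python 3.11.15, pandas 2.3.3 and matplotlib 3.10.9 made the tables and figures. The fit was tested on simulated data with 200 changed probe sets and noise drawn independently for each array. Simulated for bes1-1 against WT at 72 h, 10% of changes of 1 log2 unit and 51% of changes of 2 units were recovered.

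The labels' replicate numbers were checked as pairs through the correlation, over all probe sets, of the deviations of same-numbered arrays from their group means. It was above 0.1 for every pair in the 3 inductions, both mutants against WT at 72 h, bes1-3 against WT at 0 h and bes1-1 against bes1-3 at both times, with lowest values of 0.168 to 0.271. It reached down to 0.0106 in bes1-1 against WT at 0 h and the bes1-1 difference in induction, and to 0.0802 in the bes1-3 difference in induction, which count as unpaired. In replicate 1 the same number stood out, at 0.465 against at most -0.28 for other numbers in the WT induction. In replicates 2 and 3 another number sometimes correlated more. In bes1-3 against WT at 72 h, replicate 2 had 0.172 against 0.26, whereas replicate 3 had 0.325 against 0.187. The limit of 0.1 thus does not show that replicates 2 and 3 were paired, and the blocked p-values carry this uncertainty.

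The members and the gene lists were chosen with earlier results of these data known. Every member is named, members called in an induction are given with each array of the groups called, and members called only with the replicate block by their differences. Names follow the platform annotation, and all 65 symbols matched TAIR10.1, which gave names and gene order and no coordinates. No sequences were used, so the planned promoter motif and protein comparisons were not made. Alternatives were the replicate block, quantile normalization, centring on array medians, replicates 2 and 3 only, leaving out dim probe sets, a trend in eBayes, fitting the compared groups alone, the other probe set of a gene, and leaving out each array.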

Additional observations from a re-analysis of the deposited data

How the results depend on the processing

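Of the 58 called inductions, 37 kept their call under every alternative and 21 lost it under 1 or more: 14 when an array was left out, 9 when the compared groups were fitted alone, 7 with the other probe set, 4 each under quantile normalization and in replicates 2 and 3 only, 3 after median centring, 2 with a trend and 0 with the replicate block or without dim probe sets. Only 5 genes have several probe sets, and for the rest the other probe set repeats the main value. Among the called inductions that it could change, only those of UGT73C6 kept their call. Of the 806 values under alternatives, those repeats included, 738 stayed as called, 65 lost the call in the same direction and 3 lost it and turned, all 3 on the other UGT85A4 probe set (0.05 in bes1-1, 0.28 in bes1-3 and 0.14 in WT). UGT71D1 in bes1-3, not called at -0.46, ranged between -0.84 and 0.05 when an array was left out.

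Several counts of called genes were higher under other settings, and the cause was not tested. For the GST inductions the replicate block gave 8 in bes1-1 and 11 in bes1-3, median centring 9 in bes1-1 and quantile normalization 10 in bes1-3, against 5 and 6. For the UGT inductions the block gave 23 in bes1-1, 26 in bes1-3 and 27 in WT, median centring 21 in bes1-1 and 22 in bes1-3, and quantile normalization 19 in bes1-1, against 11, 14 and 16. Backgrounds for these settings stand with the inductions. At 72 h the block, quantile normalization, centring and replicates 2 and 3 alone gave 7, 5, 4 and 3 GST genes in bes1-1 against WT and 3, 3, 2 and 2 in bes1-3, and 5, 4, 3 and 2 UGT genes in bes1-1 and 5, 4, 2 and 0 in bes1-3, where the fit without the block gave 0. Over all probe sets these settings called 13.4%, 6.59%, 5.16% and 5.25% in bes1-1 and 7.31%, 2.45%, 1.47% and 0.929% in bes1-3. The difference in induction had 2, 0, 2 and 2 GST and 2, 1, 1 and 1 UGT genes in bes1-1 under the same settings, and in bes1-3 1 GST gene with the block and in replicates 2 and 3 alone and 1 UGT gene with the block. The shares of all probe sets were 8.33%, 3.16%, 2.9% and 1.57% in bes1-1, and 1.12% and 0.0625% in bes1-3. In bes1-1 against bes1-3 at 72 h the block gave 2 UGT genes. Without WT replicate 1 at 72 h, 1 UGT gene was called in bes1-1 against WT at 72 h (0.997% of all probe sets), and leaving out any other array gave 0. The replicate block changed no call at 0 h, where its counts were 0. The differences in induction count as unpaired under the limit of 0.1, which only arrays of replicates 2 and 3 missed. Same-numbered arrays of replicate 1 correlated there at 0.416 or more in bes1-1 and 0.436 or more in bes1-3. In bes1-1 the block called GSTF4 (-1.43, adjusted p = 0.0201), GSTU26 (-1.77, 0.00115), UGT71C4 (-0.60, 0.0227), UGT74F1 (-1.33, 0.0256) and the pathway gene DFR (4.28, 0.00746). In bes1-3 it called GSTU26 (-1.66, 0.0075) and UGT71C4 (-0.75, 0.0317).

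Signal sets the limit for 3 GST genes (GSTU15, GSTU21 and GSTU22) and 11 UGT genes whose means were under the mean lower quartile of 3.791. The 3 arrays per group of unknown origin, a scale that shifts between replicate 1 and the others, unnamed probe sets and an unstated normalization limit every comparison.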

Other observations

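Probe sets close to the rule but outside it were measured as well. A probe set annotated ATGSTF13, a phi class name with a species prefix, had log2 signals of 4.35 ± 0.25 in bes1-1, 4.42 ± 0.37 in bes1-3 and 4.58 ± 0.65 in WT at 72 h, against 5.59 ± 0.73, 5.42 ± 0.28 and 5.26 ± 0.27 at 0 h (SD, n = 3 each). Its induction was -1.24 ± 0.37 in bes1-1 (limma adjusted p = 0.0252), -1.0 ± 0.37 in bes1-3 (0.0681) and -0.68 ± 0.37 in WT (0.276). Both probe sets that the platform assigns to UGT84A1 together with AT4G15475 were not called in any induction, with differences of -0.23 and -0.28 in bes1-1, 0.05 and -0.35 in bes1-3 and 0.19 and -0.37 in WT.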
